A study of Homo sapiens with 12 samples.

Results

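FOS, FOSB, FOSL1 and FOSL2 of the FOS family, JUN, JUNB and JUND of the JUN family, and BATF3 of the related BATF family were followed across 12 arrays of Colo320DM cells. A member was any gene whose symbol in the scanner files equalled one of these 8 names. Each had 1 probe, so 8 probes out of 50599 and 8 gene names out of 34423 are described. The rule matches names and uses no measured value, but the names were listed with earlier results of these data known.

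AP-1 is a dimer of basic leucine zipper proteins that binds short DNA sites and switches on transcription. JUN proteins pair with each other or with FOS proteins, whereas FOS proteins need a JUN partner, and BATF proteins pair with JUN proteins and can compete with FOS for them. FOS, FOSB, JUN and JUNB are immediate-early genes, which are transcribed briefly after growth factor or stress signals through MAP kinases, and AP-1 is known in colorectal cancer for its role downstream of such signals.

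Colo320DM is a human colorectal cancer line with extra copies of MYC. All clones had been transfected with a plasmid derived from pcDNA6.2-GW/EmGFP-miR and selected with 1.0 mg/ml G418. Control clones carried the negative control insert (miR-neg), and knockdown clones carried a vector with an artificial miRNA against TET1, the dioxygenase that oxidizes methylated cytosine. There were 3 control and 3 knockdown clones, each grown from a single colony, and each was measured after mock treatment and after 72 h in 5-aza-dC (5-aza-2'-deoxycytidine) at 1 µM, a cytidine analogue that blocks DNA methyltransferases, with drug and medium replaced every 24 h. Per the study's methods, 2 TET1 sequences were used, miTET1-1 in knockdown clones 1 and 2 and miTET1-2 in knockdown clone 3. Clones of one number in the mock and treated groups are the same clone, whereas a control clone and a knockdown clone that share a number are unrelated. Values are log2 signals relative to the 75th percentile of the same array, so 0 is that percentile and negative values lie under it. Signals of different probes are not compared with each other.

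Over all non-control spots of an array, the 75th percentile ranged from 361 to 542 intensity units. The percentile used as reference for the log2 values was taken over probes, without outlier spots and with repeated spots averaged, and lay lower. Per array, 45.7% to 52.9% of probes were well above background. The arrays came from 2 slides, which also differed in scan time. Slide 1 held control clones 1 and 2 and all knockdown clones after mock treatment, and knockdown clones 1 and 3 after 5-aza-dC. The other 5 arrays, among them all treated control clones, were on slide 2. The first principal component, with 43.2% of the variance, separated the slides, and on each slide it also set mock apart from treated arrays. Values within a slide or within a clone are therefore given beside the differences where a slide held both groups. The brightest TET1 probe read 4.56, 4.23 and 4.67 in mock control clones 1 to 3 and 3.59, 3.51 and 3.57 in mock knockdown clones. After 5-aza-dC it read 4.06, 4.42 and 4.16 in control clones and 2.98, 4.31 and 3.35 in knockdown clones, so treated knockdown clone 2 lay within the control range on this probe. All 3 TET1 probes were lower in knockdown clones, by -0.93, -1.35 and -1.08 after mock treatment and by -0.67, -1.75 and -1.07 after 5-aza-dC, and none passed the test (limma adjusted p = 0.242 to 0.395 and 0.126 to 0.335). Of the epithelial and colorectal markers, KRT8, KRT18, CDX1 and CDX2 were well above background on all 12 arrays, EPCAM on 10 with a range of -4.78 to 2.16, VIL1 on 1 and CDH1 on none.

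The promoters of the 3 genes that fell with 5-aza-dC in control clones, FOS, FOSB and JUN, are shown with that of FOSL2, a FOS family gene that was not called in any comparison. Each run holds the 250 bases before the RefSeq start in GRCh38.p14, 5′ to 3′ on the strand of the gene. RefSeq windows were found for 6 of the 8 members, all but FOSL1 and BATF3. Capitals mark letters of motifs found on either strand: the cAMP response element (CRE, TGACGTCA), the CRE core that overlaps it (TGACG), the site bound by AP-1 dimers (TGANTCA), the longer AP-1-like element known from the JUN promoter (TGACATCA), the TATA box (TATAAA), the CCAAT box and the CArG box bound by serum response factor.
FOS, chr14:75278578-75278827, plus strand: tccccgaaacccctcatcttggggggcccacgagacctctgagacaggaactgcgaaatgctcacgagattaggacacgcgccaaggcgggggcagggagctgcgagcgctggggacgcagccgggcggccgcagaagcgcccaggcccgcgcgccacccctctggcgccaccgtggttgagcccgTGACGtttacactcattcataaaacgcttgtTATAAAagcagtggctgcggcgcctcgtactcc
FOSB, chr19:45467746-45467995, plus strand: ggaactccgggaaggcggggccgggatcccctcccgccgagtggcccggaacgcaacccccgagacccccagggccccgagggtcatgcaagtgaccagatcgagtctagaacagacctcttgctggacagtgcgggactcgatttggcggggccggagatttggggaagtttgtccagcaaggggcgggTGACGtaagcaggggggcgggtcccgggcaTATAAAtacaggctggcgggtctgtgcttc
JUN, chr1:58784048-58784297, minus strand: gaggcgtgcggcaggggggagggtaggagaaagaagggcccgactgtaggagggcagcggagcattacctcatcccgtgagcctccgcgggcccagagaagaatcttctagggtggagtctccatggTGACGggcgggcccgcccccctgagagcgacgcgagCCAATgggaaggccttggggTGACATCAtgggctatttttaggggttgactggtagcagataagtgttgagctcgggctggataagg
FOSL2, chr2:28392608-28392857, plus strand: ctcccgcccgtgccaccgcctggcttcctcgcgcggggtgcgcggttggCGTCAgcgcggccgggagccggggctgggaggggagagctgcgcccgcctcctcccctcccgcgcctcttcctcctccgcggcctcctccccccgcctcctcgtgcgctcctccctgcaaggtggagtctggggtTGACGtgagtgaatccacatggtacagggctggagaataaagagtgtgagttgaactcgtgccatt

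The FOS and FOSB windows had the same arrangement of motifs. In FOS the CRE core stood 64 to 60 bases before the start and the TATA box 33 to 28 bases before it, and in FOSB these stood at 60 to 56 and 30 to 25 bases. JUN held the CRE core at 123 to 119, a CCAAT box at 87 to 83 and the AP-1-like element at 67 to 60 bases, with no TATA box. FOSL2 held the CRE core at 66 to 62 bases and, on the other strand, at 201 to 197 bases. JUNB held the CRE core, a CCAAT box and a TATA box, and JUND the full CRE. All 6 windows thus held the CRE core, as did 21.2% of 35114 RefSeq windows of this length. The TATA box was in 10.72% of these windows, the CCAAT box in 32%, the AP-1-like element in 2.38%, the full CRE in 1.65%, the AP-1 dimer site in 6.57% and the CArG box in 1.16%. Neither the AP-1 dimer site nor the CArG box was in the 6 windows of the members. Sequence farther upstream than these windows was not searched. The absence therefore holds for the windows only and does not show that the promoters lack these sites.

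The first question was how the family differed between knockdown and control clones without drug. FOS, the founding member of its family, was 63.0-fold lower in mock knockdown clones and was the only 1 of the 8 genes called at an adjusted p under 0.05, in a comparison that called 0.137% of 24749 probes. FOSB and JUN were lower by 4.75 and 1.65 on the log2 scale without passing the test. FOSL1, FOSL2, JUNB and JUND were lower by less than 0.7 and BATF3 was higher, so 7 of 8 differences were negative, with a median of -0.57 against 0.04 over all probes tested. In RNA from whole cultures, fewer cells with a transcript and less of it per cell cannot be told apart.

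FOS (hg19 chr14:75748214-75748273) read 4.14, 4.99 and 3.33 in mock control clones 1, 2 and 3. In mock knockdown clones it read -1.85, -1.29 and -2.33. The groups lay more than 4 log2 units apart, and every array was well above background. The difference was -5.98 (SE 0.47, 95% confidence interval -7.11 to -4.84, limma adjusted p = 0.0107). On slide 1, with 3 knockdown and 2 control clones, it was -6.39. Without control clone 1, knockdown clone 1 or knockdown clone 3 the difference was -5.98, -5.96 or -5.73 and missed the threshold (adjusted p = 0.104, 0.129 and 0.0906), as it did by the methods' t-test (adjusted p = 0.237), within a range of 0.00013 to 0.237 over all alternatives.

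FOSB, a FOS paralogue with an immediate-early response of its own, sat at hg19 chr19:45978205-45978264. It read 1.36, 2.55 and -0.71 in mock control clones and -3.60, -3.83 and -3.61 in mock knockdown clones. The control clones spread over more than 3 log2 units and the knockdown clones over less than 0.3, near the limit of detection, and knockdown clone 2 was not well above background. The difference of -4.75 (SE 0.77) did not pass the test (adjusted p = 0.177). On slide 1 it was -5.63, and with slide as a block it passed (adjusted p = 0.0232), as it did without control clone 3, the control array of slide 2 (adjusted p = 0.0365, within a range of 0.0129 to 0.621 over all alternatives). Both fits give the same estimate, because control clone 3 was the only mock array on slide 2 and the slide block absorbs it. Its value of -0.71 was the lowest of the mock control clones. With normexp background it was -3.03 (adjusted p = 0.244).

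JUN, the partner of FOS in the classical AP-1 dimer, was measured at hg19 chr1:59246511-59246570. It read 3.38, 3.87 and 3.24 in mock control and 1.25, 2.72 and 1.57 in mock knockdown clones. The groups did not overlap, but knockdown clone 2 lay more than 1 log2 unit above knockdown clones 1 and 3. The difference was -1.65 (SE 0.41, adjusted p = 0.34). JUND, the JUN protein that resting cells keep at a steady level, was measured at hg19 chr19:18391371-18391430. It read -0.04, 0.29 and 0.02 in control and -0.43, -0.46 and -0.75 in knockdown clones, again without overlap (-0.64, SE 0.20, adjusted p = 0.375). On slide 1 the differences were -1.78 for JUN and -0.67 for JUND. FOS, FOSB, JUN and JUND were the 4 of 8 members whose groups did not overlap, all lower in knockdown clones, where 21.3% of all probes did not overlap in either direction. With 3 clones against 3, an exact permutation test cannot go below p = 0.1, which each of the 4 reached.

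**Figure D1:**
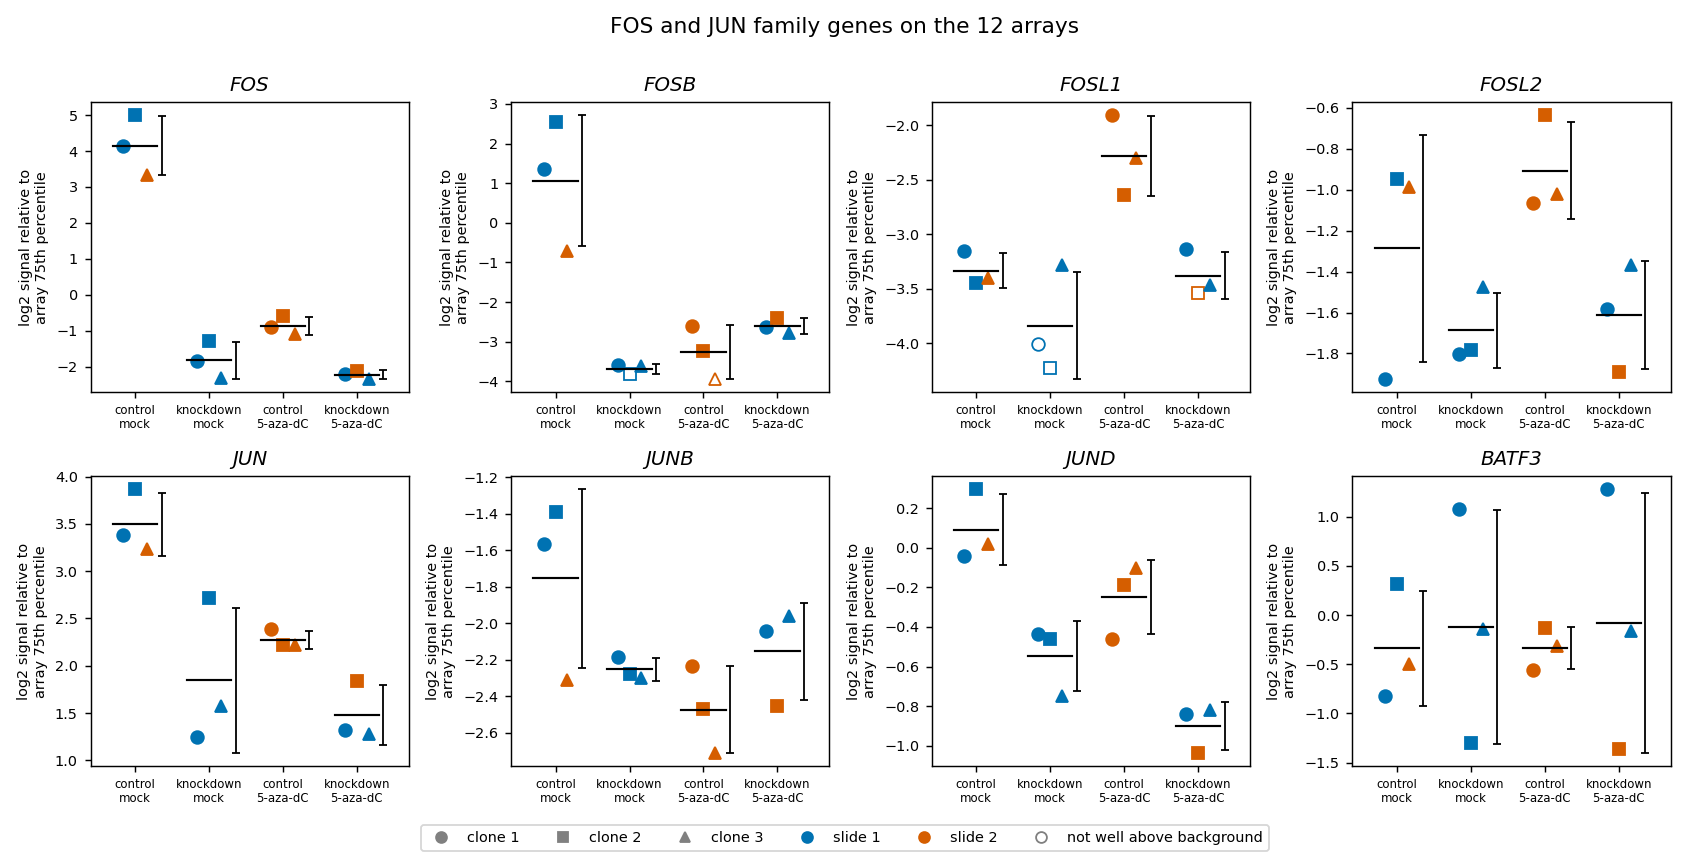
Log2 signal of the 8 genes relative to the 75th percentile of each array (vertical axes, 1 panel per gene with its own scale) in the 4 groups of 3 clones; marker shape gives the clone, colour the slide, open markers an array not well above background, horizontal lines the group mean and error bars 1 SD. FOS in mock control clones, at 3.33 to 4.99, stands above all other FOS values, which lie between -2.34 and -0.59, and BATF3 keeps each knockdown clone at its own level.

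The remaining members overlapped between mock groups. JUNB, which often opposes JUN in growth control, was measured at hg19 chr19:12902998-12903057 and read -1.56, -1.39 and -2.31 in control and -2.18, -2.28 and -2.30 in knockdown clones. Control clone 3 lay with the knockdown clones (-0.50, SE 0.27, adjusted p = 0.523). FOSL2 (FRA-2, hg19 chr2:28637175-28637234) read -1.93, -0.95 and -0.99 in control and -1.80, -1.78 and -1.48 in knockdown clones, and here control clone 1 was the lowest of the 6 (-0.40, SE 0.31, adjusted p = 0.616). FOSL1 (FRA-1, hg19 chr11:65660098-65660157) was dim. It read -3.15, -3.45 and -3.40 in control and -4.01, -4.22 and -3.29 in knockdown clones, of which only clone 3 was well above background (-0.50, SE 0.28, adjusted p = 0.526). On slide 1, without control clone 3, the differences were -0.78 for JUNB, -0.25 for FOSL2 and -0.54 for FOSL1.

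BATF3, a BATF family member best known from dendritic cell development, differed mainly from clone to clone. At hg19 chr1:212860028-212860087 it read -0.83, 0.31 and -0.50 in mock control clones and 1.08, -1.30 and -0.14 in mock knockdown clones. The knockdown clones spanned more than 2 log2 units, from above every control clone to below every one (0.22, SE 0.62, 95% confidence interval -1.28 to 1.71, adjusted p = 0.887). After 5-aza-dC the same knockdown clones read 1.28, -1.36 and -0.16, in the same order and each within 0.20 of its mock value. Treated control clones read -0.55, -0.13 and -0.32. No difference of BATF3 passed the test in any comparison. On slide 1 the difference between mock clones was 0.14 and that for 5-aza-dC in knockdown clones 0.68, and on slide 2 the difference between treated clones was -1.03 and that for 5-aza-dC in control clones 0.17. Each slide held other clones, and their part in these values was not tested.

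The next question was what 5-aza-dC did in control clones. FOS fell 32.2-fold, FOSB 20.1-fold and JUN 2.33-fold, and these 3 of 8 members were called, all lower, where the test called 5.19% of 24627 probes (942 higher and 337 lower). FOSL1 went the other way without passing the test. This comparison uses the same mock control arrays as that between mock clones, so the results for FOS, FOSB and JUN in both rest on the same high values and are not independent.

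FOS read -0.89, -0.59 and -1.08 in control clones 1, 2 and 3 after 5-aza-dC. It was thus lower than in the same clone after mock treatment by -5.03, -5.58 and -4.41 log2 units, with no overlap (-5.01, SE 0.42, adjusted p = 0.00218). Clone 3, whose arrays both lay on slide 2, gave the value -4.41. FOSB read -2.60, -3.25 and -3.95, the last not well above background, and the clones differed from mock by -3.96, -5.79 and -3.23 (-4.33, SE 0.83, adjusted p = 0.0385). JUN read 2.39, 2.22 and 2.22, close together after a wider spread in mock, and the clones differed by -0.99, -1.65 and -1.02 (-1.22, SE 0.21, adjusted p = 0.0286). In mock control arrays clone 2 was highest and clone 3 lowest for FOS, FOSB, JUN and JUNB alike, and for these 4 genes clone 2 also had the largest treatment difference.

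These calls depended on single clones and on the slide. Without control clone 1 the adjusted p was 0.108 for FOS, 0.344 for FOSB and 0.314 for JUN, and without control clone 2 it was 0.0765, 0.431 and 0.466. With slide as a block FOS was lower by -4.18 and stayed called (adjusted p = 0.0159), whereas FOSB (-2.55, adjusted p = 0.154) and JUN (-0.96, adjusted p = 0.143) were not. These slide-block values set 3 treated arrays against control clone 3, the 1 mock control array on slide 2. With the clone as a replicate block JUN gave adjusted p = 0.0502 and FOSL1 0.0483. With clone and slide together as blocks FOS gave -4.41 (adjusted p = 0.0723), FOSB -3.23 (adjusted p = 0.221) and JUN -1.02 (adjusted p = 0.313), in a fit that called no probe at all. The estimates with clone and slide are the differences of control clone 3 alone, the only control clone with both arrays on the same slide. Over all alternatives the adjusted p ranged from 0.000606 to 0.108 for FOS, from 0.0186 to 0.431 for FOSB, from 0.0175 to 0.466 for JUN and from 0.0483 to 0.449 for FOSL1.

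FOSL1, which encodes FRA-1 and is linked to invasion in many carcinomas, read -1.91, -2.64 and -2.30 in treated control clones, above all 3 mock values. The clones differed from mock by 1.24, 0.81 and 1.10 (1.05, SE 0.23, adjusted p = 0.0566), and on slide 2 alone the difference was 1.12. JUNB read -2.24, -2.47 and -2.71 and was lower than mock in each clone, by -0.67, -1.08 and -0.40 (-0.72, SE 0.29, adjusted p = 0.176). On slide 2, and equally with slide as a block, JUNB differed by -0.16 (adjusted p = 0.763 with the block), whereas without control clone 3 it was called (-0.88, adjusted p = 0.0364, within a range of 0.0364 to 0.763 over all alternatives). JUND read -0.46, -0.19 and -0.10, below its mock values without overlap (-0.34, SE 0.18, adjusted p = 0.278). FOSL2 read -1.07, -0.64 and -1.02 and overlapped (0.38, SE 0.31, adjusted p = 0.45). On slide 2 JUND differed by -0.27 and FOSL2 by 0.08. Groups did not overlap for 5 members, 4 of them lower, against 32.4% of all probes.

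**Figure D2:**
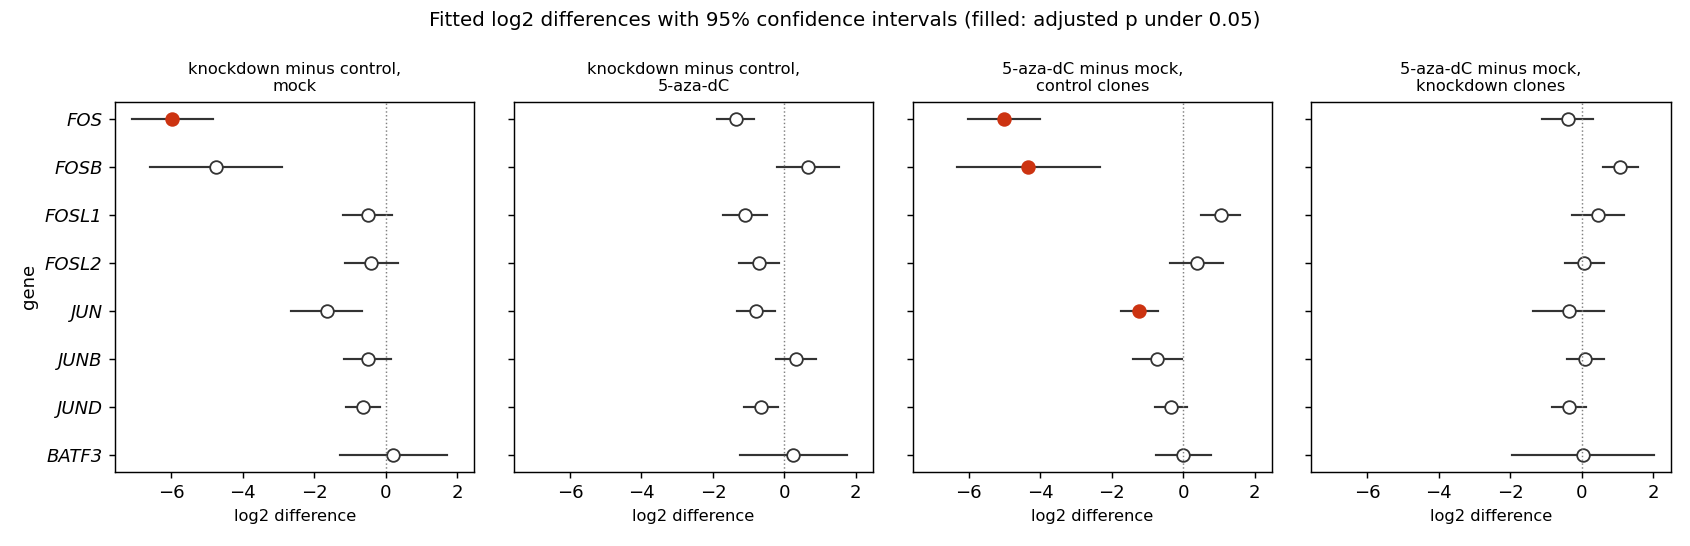
Fitted log2 differences (horizontal axis) of the 8 genes in the 4 comparisons of 3 arrays against 3; circles are estimates, lines 95% confidence intervals from limma, and filled circles passed an adjusted p of 0.05. FOS is the gene with a filled circle between mock clones, FOS, FOSB and JUN have filled circles for 5-aza-dC in control clones, and the panels of treated clone types and of knockdown clones have none.

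In knockdown clones none of the 8 genes was called for 5-aza-dC by limma, where 2.05% of 25385 probes were called. At an unadjusted p under 0.05 by limma there was 1 gene, FOSB, where 2323 of the 25385 probes were. The methods' t-test also called 0 of the 8 genes. FOSB read -2.64, -2.39 and -2.78 after treatment, above all mock values, and the same clones differed by 0.96, 1.44 and 0.84 (1.08, SE 0.20, 95% confidence interval 0.59 to 1.56, adjusted p = 0.0622). Clones 1 and 3, with both arrays on slide 1, gave the 0.96 and the 0.84. FOS read -2.20, -2.12 and -2.34 and differed from mock by -0.35, -0.82 and -0.02 (-0.40, SE 0.30, 95% confidence interval -1.11 to 0.31, adjusted p = 0.712). The interval does not reach the size of the difference in control clones. Mock knockdown clones already averaged -1.82, however, and the lowest signal well above background on those arrays averaged -3.92. A fall as large as in control clones would have ended among signals not well above background.

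JUN read 1.33, 1.84 and 1.27 in treated knockdown clones, where only clone 2 differed from mock by more than 0.3 (-0.37, SE 0.41, adjusted p = 0.794). JUND read -0.84, -1.04 and -0.82, below its mock values (-0.35, SE 0.20, adjusted p = 0.653), a difference that matched the -0.34 in control clones in size. FOSL1 read -3.13, -3.54 and -3.47 with clone 2 not well above background (0.46, SE 0.30, adjusted p = 0.689). FOSL2 read -1.58, -1.89 and -1.37 (0.07, SE 0.23, adjusted p = 0.931) and JUNB -2.04, -2.46 and -1.96 (0.10, SE 0.21, adjusted p = 0.893), and both overlapped with mock. FOSB and JUND were the 2 members without overlap, against 19.2% of all probes. On slide 1, without treated knockdown clone 2, the differences were 0.97 for FOSB, -0.45 for FOS, -0.55 for JUN, -0.28 for JUND, 0.54 for FOSL1, 0.21 for FOSL2 and 0.25 for JUNB.

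**Figure D3:**
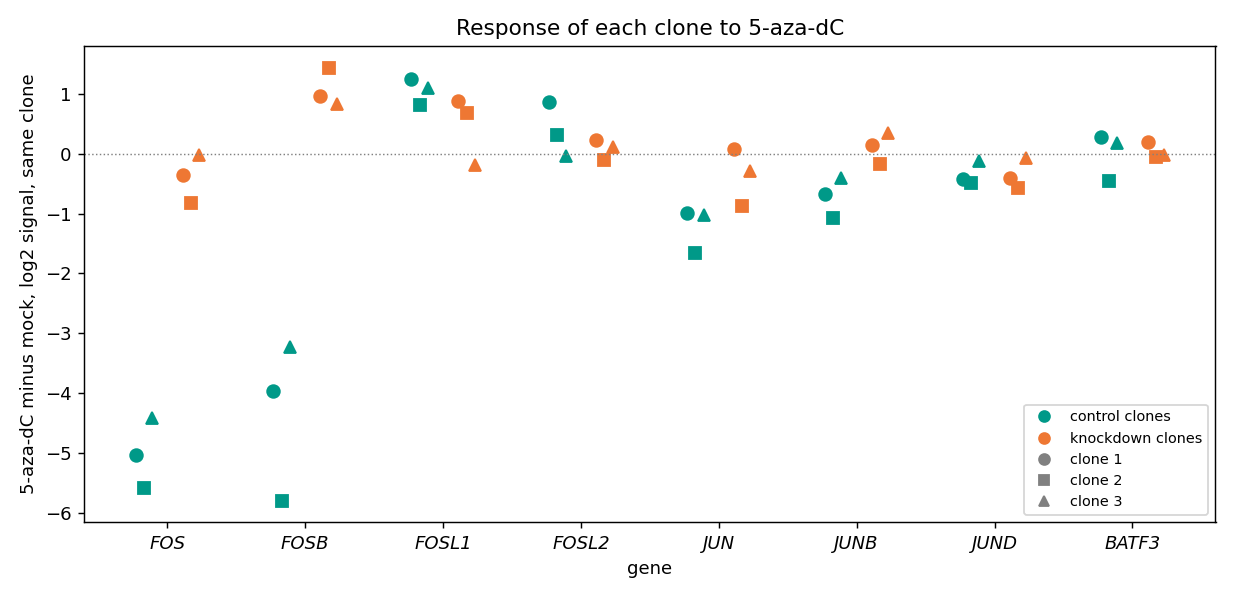
Difference between 5-aza-dC and mock treatment within each clone (vertical axis, log2 signal) for the 8 genes, with control clones in teal, knockdown clones in orange and marker shape giving the clone number. For FOS the control clones lie between -5.58 and -4.41 and the knockdown clones between -0.82 and -0.02, and for FOSB all control clones lie below 0 and all knockdown clones above it.

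Whether the response differed between clone types was tested by the interaction term over all 12 arrays. FOS was called, with a response that was 4.61 log2 units higher, that is less negative, in knockdown clones (SE 0.55, 95% confidence interval 3.40 to 5.83, adjusted p = 0.0327). This was 1 of 8 members, where 0.0367% of 27281 probes were called. The term uses the same high mock control arrays as the comparisons that called FOS, so it is not independent of them. In knockdown clones a fall of FOS or FOSB as large as in control clones would have ended among signals not well above background. FOSB gave 5.41 (SE 0.93, 95% confidence interval 3.35 to 7.47, adjusted p = 0.239), with all 3 control clones lower and all 3 knockdown clones higher after treatment. It was called without control clone 3 (5.96, adjusted p = 0.0149) and smallest with normexp background (3.28, adjusted p = 1), which are also the limits of its adjusted p over all alternatives. JUN gave 0.85 (SE 0.49, adjusted p = 1) and JUNB 0.82 (SE 0.36, adjusted p = 1). JUND differed least, with -0.01 (SE 0.25, 95% confidence interval -0.57 to 0.55). The FOS interaction missed the threshold with the clone, which pairs mock and treated arrays, as a replicate block (adjusted p = 0.0612) and with no filter on dim probes (adjusted p = 0.0505), stayed called with clone and slide as blocks (4.36, adjusted p = 0.0342), and missed it without control clone 1 or 2 or any 1 knockdown clone (adjusted p = 0.0827 to 0.489), with a range of 0.0165 to 0.489 over all alternatives.

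After 5-aza-dC the clone types were compared directly. None of the 8 genes was called by limma, where 0.104% of 24991 probes were called. There were 5 genes at an unadjusted p under 0.05 by limma, where 4812 of the 24991 probes were, and the methods' t-test called 0 of the 8 genes. FOS was lower in treated knockdown clones by -1.36 (SE 0.21, adjusted p = 0.0968), FOSL1 by -1.10 (SE 0.26, adjusted p = 0.168), JUN by -0.79 (SE 0.23, adjusted p = 0.194), FOSL2 by -0.71 (SE 0.24, adjusted p = 0.22) and JUND by -0.65 (SE 0.20, adjusted p = 0.207). These 5 did not overlap between groups, against 24.9% of all probes. FOSB was higher by 0.66 (SE 0.36, adjusted p = 0.335), JUNB by 0.32 (SE 0.24, adjusted p = 0.456) and BATF3 by 0.25 (SE 0.62, adjusted p = 0.829). All treated control clones lay on slide 2 and 2 of 3 treated knockdown clones on slide 1. Without treated knockdown clone 2, slide and clone type cannot be told apart, and FOS, FOSL1 and JUN were then called (adjusted p = 0.0082, 0.0356 and 0.0105) together with 7721 probes in all. With slide as a block FOS gave -1.26 (adjusted p = 0.15) and JUN -0.43 (adjusted p = 0.402). On slide 2, where treated knockdown clone 2 stood alone against the 3 control clones, the differences of the others were -1.25 for FOSL1, -0.98 for FOSL2, -0.79 for JUND, 0.87 for FOSB and 0.02 for JUNB. Over all alternatives the adjusted p ranged from 0.0082 to 0.385 for FOS, from 0.0356 to 0.487 for FOSL1 and from 0.0105 to 0.514 for JUN.

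For FOS the order of the group means was mock control (4.15 ± 0.83, SD, n = 3), treated control (-0.86 ± 0.25), mock knockdown (-1.82 ± 0.52) and treated knockdown (-2.22 ± 0.12). Treated and mock knockdown clones overlapped, and the other neighbours did not. For JUN the order was the same, with means of 3.49 ± 0.33, 2.27 ± 0.10, 1.85 ± 0.77 and 1.48 ± 0.31, and all neighbours after the first overlapped. FOSB had its highest mean in mock control clones (1.06 ± 1.65), followed by treated knockdown (-2.60 ± 0.20), treated control (-3.26 ± 0.67) and mock knockdown clones (-3.68 ± 0.13). FOSL1 had its highest mean in treated control clones (-2.28 ± 0.36) and its lowest in mock knockdown clones (-3.84 ± 0.49).

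Across the 12 arrays the members fell into those that followed FOS and those that did not. Pearson's r with FOS was 0.918 for JUN, 0.912 for FOSB, 0.843 for JUND and 0.635 for JUNB. It was 0.243 for FOSL2, 0.00 for FOSL1 and -0.11 for BATF3. These are descriptions over arrays that share slides and clones, and the 3 mock control arrays stand apart from the other 9 in FOS, so they carry much of each value.

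The 5 other genes most like FOS over the 12 arrays were EGR1 (r = 0.989), HAS2-AS1 (0.950), HAS2 (0.923), ITGB1 (0.900) and DUSP1 (0.892). HAS2-AS1 was well above background on 3 arrays and HAS2 on 4, so most values behind their r were not well above background. EGR1, an immediate-early zinc finger factor, read 4.52, 5.12 and 3.84 in mock control and -1.89, -1.56 and -1.83 in mock knockdown clones. After 5-aza-dC it read -0.20, -1.07 and -0.84 in control and -1.22, -2.10 and -1.91 in knockdown clones. As for FOS, the mock control clones stood above all other arrays, with clone 2 highest and clone 3 lowest. The genes most like JUN were KLHDC5 (0.959), TBX3 (0.945), CITED1 (0.941) and SNORD42A (0.934), of which SNORD42A was well above background on 5 arrays and the others on all 12.

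**Figure D4:**
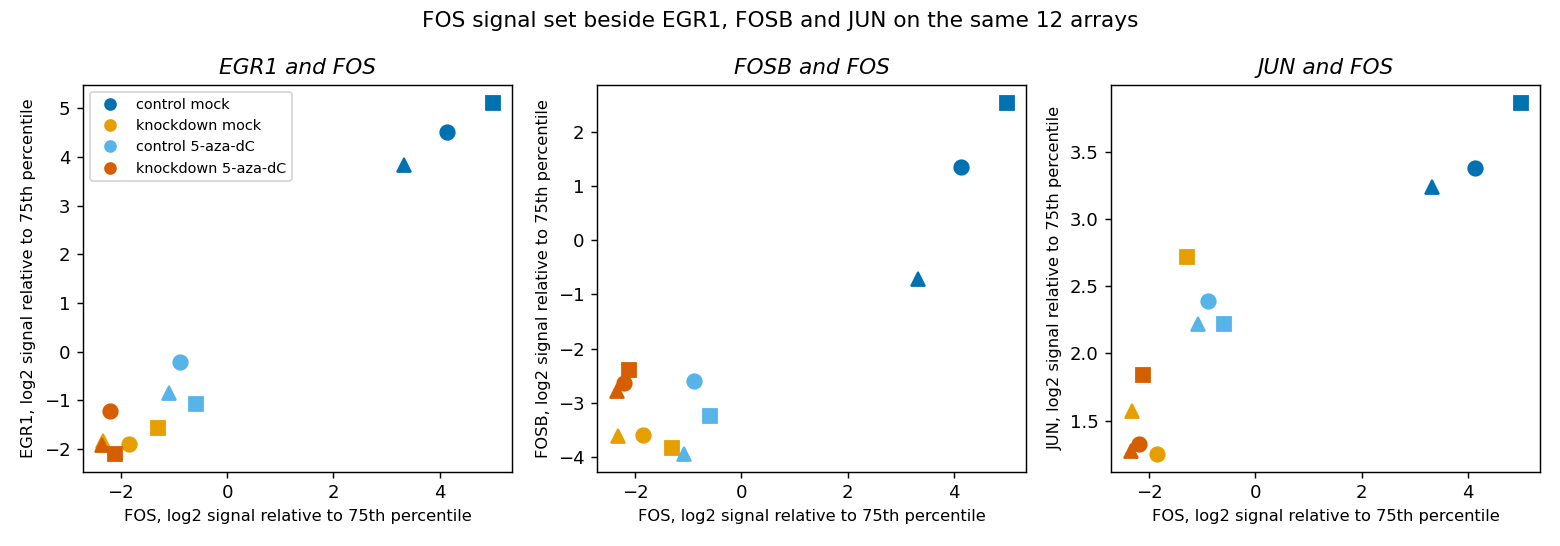
Log2 signal of EGR1, FOSB and JUN (vertical axes) against that of FOS (horizontal axes), each relative to the 75th percentile, on the same 12 arrays; colour gives the group and marker shape the clone. The 3 mock control arrays lie at the upper right in each panel, at FOS values of 3.33 to 4.99, apart from the other 9 arrays.

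Of 10 other immediate-early genes, all tested, EGR1 was the only one called. It differed by -6.25 between mock clones (SE 0.34, adjusted p = 0.00147) and by -5.20 for 5-aza-dC in control clones (SE 0.38, adjusted p = 0.00143), and its interaction was 5.21 (SE 0.50, adjusted p = 0.00789). The list's median difference between mock clones was -0.47, with 9 of 10 lower, against 0.04 over all probes. For 5-aza-dC in control clones the median was 0.27, with 8 of 10 higher, against -0.02 over all probes.

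Of 12 other bZIP partners, 2 were called for 5-aza-dC in control clones, both higher, where 5.19% of all probes were called and 942 of those 1279 were higher. In knockdown clones 1 was called, where 2.05% of all probes were. BATF, a BATF3 paralogue known from lymphocytes, was well above background on no mock array. It passed the filter in these fits only through the treated group where it was high, so its place among the calls is description only. After 5-aza-dC BATF read -0.85, -1.43 and -1.90 in control clones, at least 6.39-fold above mock. In knockdown clones it read -1.61, -2.89 and -2.10, at least 3.30-fold above mock. These bounds set the treated mean against the lowest signal still well above background on each mock array. NRL, a MAF family factor of photoreceptors, rose by 0.94 in control clones (SE 0.16, adjusted p = 0.0265) and differed by 0.10 in knockdown clones (SE 0.18, adjusted p = 0.871), with an interaction of -0.84 (SE 0.21, adjusted p = 1). The median of the 12 tested partners for 5-aza-dC was 0.70 in control and 0.20 in knockdown clones, against -0.02 and -0.09 over all probes.

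The listed upstream regulators of FOS and JUN showed no call. Among them were SRF, the ELK factors, CREB1, ERK and JNK MAP kinases, the p38 kinase MAPK14 and the activators MAP2K1, MAP2K2, MAP2K4 and MAP2K7. Of 20 such genes 19, all but the JNK gene MAPK10, were tested and 0 passed in any of the 5 comparisons. The list medians lay between -0.20 and 0.04, against -0.09 to 0.04 over all probes. Transcript levels of kinases do not report their activity. Of 18 textbook AP-1 targets only 8 or 9 were bright enough to be tested, and 0 passed in any comparison. Their median was -0.04 between mock clones, against 0.04 over all probes. For 5-aza-dC in control clones it was 0.44, with 7 of 8 higher, against -0.02 over all probes.

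The summed linear signal of cell type markers, in multiples of the 75th percentile, was set beside these results. For the 7 epithelial and colorectal markers it was 330 to 646 in mock control, 227 to 360 in mock knockdown, 415 to 500 in treated control and 228 to 423 in treated knockdown clones, so the knockdown ranges started and ended lower but overlapped those of control clones at either treatment. Most of each sum was CDX2, with log2 signals of 7.67 to 9.27, ahead of KRT18 at 4.08 to 4.89. The sums therefore describe CDX2 more than the set. For MYC and its amplified neighbour PVT1 it was 475 to 628, 621 to 952, 487 to 514 and 588 to 866 in the same order, higher in knockdown clones with overlap in mock and none after treatment. For 5 neuroendocrine markers it was 0.424 to 0.629 in mock control, 0.149 to 0.975 in mock knockdown, 4.62 to 9.19 in treated control and 2.67 to 3.59 in treated knockdown clones, so every treated array lay above every mock array, with INSM1 well above background on none. Of these 5 markers, 3 were well above background on every treated control array, but only 1 on every treated knockdown array. In treated knockdown clones 3 were well above background on no array, so few genes carry that sum. For 3 blood markers the sums overlapped between all groups, at 1.61 to 2.49, 1.28 to 1.71, 1.56 to 1.81 and 1.39 to 2.07 in the same order, with PTPRC well above background on all 12 arrays and making up most of each sum. For 6 fibroblast markers they were 1.14 to 3.09, 0.481 to 1.304, 2.42 to 4.52 and 1.58 to 2.34, with COL1A2 well above background on none, and treated control lay above treated knockdown clones. For 3 endothelial markers they were 0.156 to 0.255, 0.261 to 0.327, 0.0773 to 0.129 and 0.140 to 0.263, higher in knockdown clones at either treatment, with PECAM1 well above background on none. These sums lie near background. After 5-aza-dC none of the 3 was well above background on every array of either clone type, and 2 were on no treated control array. Their part in the differences of the AP-1 genes was not tested.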

How the data were processed

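Total RNA (100 ng) of 6 Colo320DM clones was labelled with Cy3 and hybridised to 12 one-colour Agilent arrays. Spot intensity was deposited as scanner output, extracted by the authors with Feature Extraction 10.7.3.1 per the file headers, and as a series table of these values after rounding. Control and outlier spots were left out, each array's log2 processed signal was set relative to its own 75th percentile, and probes well above background on at least 3 arrays of a fit were tested. Comparisons were fitted with limma 3.58.1 in R 4.3.3 on the groups compared, two-sided, with Benjamini-Hochberg adjustment over all probes and a threshold of 0.05. Scripts were tested on simulated data. The number of arrays limits the precision.

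Groups and clone numbers came from the labels. The clone number pairs mock and treated arrays, and their deviations from the group means correlated by 0.213 to 0.316 in control and 0.431 to 0.525 in knockdown clones. Separate clones are the replicates, and each clone and treatment was measured on 1 array. The members and lists were chosen with earlier results of these data known. Named genes were the members, TET1, the 5 genes most correlated with FOS and with JUN, and list genes that were called. One gene most correlated with JUN and 2 of the cell type markers are not reported here. Alternatives were other scaling (array median, quantile, normexp with offset 50), the series table, other filters, outlier spots kept, blocks for slide and clone, the methods' t-test and leaving out each clone. In the comparisons between clone types the clone block joined control and knockdown clones of the same number, which are unrelated. Those fits are counted among the alternatives. No genome of the build of the probe positions (hg19) was used here.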

Additional observations from a re-analysis of the deposited data

Results flagged for a closer look

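The response of FOS to 5-aza-dC was 4.61 log2 units less negative in knockdown clones and passed the test of the interaction term in the unpaired fit (limma adjusted p = 0.0327, 3 clones each), after a lower level in 3 of 3 control clones and a difference of -0.82 to -0.02 in knockdown clones. The term rests on the same high mock control values as the other FOS calls. In knockdown clones a fall as large as in control clones would have ended among signals not well above background. The clone pairs mock and treated arrays, and with it as a replicate block the call was lost (adjusted p = 0.0612). It was also lost with no filter on dim probes (adjusted p = 0.0505) and in 5 of the 6 fits that left out 1 clone, all but that without control clone 3 (adjusted p = 0.0827 to 0.489 in those 5).

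For FOSB the 3 control clones were all lower after 5-aza-dC (-5.79 to -3.23) and the 3 knockdown clones all higher (0.84 to 1.44). The interaction of 5.41 did not pass the test over all probes (adjusted p = 0.239, range 0.0149 to 1 over all alternatives). It was called without control clone 3 (5.96) and fell to 3.28 with normexp background, and FOSB was not well above background on 1 mock knockdown and 1 treated control array.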

How the results depend on the processing

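The number of the 8 genes called between mock clones was 1. It was 2 with slide as a block, in both fits, 0 by the methods' t-test and 0 to 2 when each clone was left out. Between treated clones it was 0, and 0 to 3 when each clone was left out. For 5-aza-dC in control clones it was 3, but 1 with no filter, 1 with slide as a block, 1 by the methods' t-test, 0 with clone and slide together (replicate block with slide) and 0 to 4 when each clone was left out. The estimates with a slide block here rest on the 1 mock control array of slide 2, that of control clone 3. With the replicate block the number was 3, namely FOS, FOSB and FOSL1. In knockdown clones it was 0 in every alternative. For the interaction it was 1, but 0 with no filter, 0 with the replicate block and 0 to 2 when each clone was left out. Leaving out a clone and the t-test also lower the power of the fit. Over all probes the calls between mock clones ranged from 4 to 114 (34 as reported), between treated clones from 0 to 7721 (26), for 5-aza-dC in control clones from 0 to 5336 (1279) and in knockdown clones from 0 to 843 (521), and for the interaction from 1 to 14 (10).

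Of 629 values of single genes under the alternatives, 559 kept direction and call, 29 lost a call, 9 gained one and 32 changed sign, none of the last a called gene. For BATF3 the value was -0.14 between mock clones with all arrays and slide as a block, and -0.03 and -0.38 without control or knockdown clone 1 (-0.38 to 0.81 over single clones left out). Between treated clones it was -1.03 with slide as a block, -0.47 with all arrays and slide, and -0.43 without knockdown clone 1 (-0.43 to 0.89). For 5-aza-dC in control clones it was -0.21 with the array median, -0.012 with quantile, -0.0081 with normexp and -0.0012 with outlier spots kept, and -0.13 and -0.088 without control clone 1 or 3 (-0.13 to 0.23). In knockdown clones it was -0.22 with the array median and -0.041 without clone 1 (-0.041 to 0.088). Its interaction was -0.013 with the array median, -0.32 with slide as a block, -0.032 with clone and slide, -0.19 without control clone 2 and -0.043 without knockdown clone 1 (-0.19 to 0.17). Between treated clones FOSB was -0.12 and JUNB -0.11 with all arrays and slide. FOSL2 was -0.034 in control clones with clone and slide. In knockdown clones FOSL2 was -0.19, -0.051 and -0.047 and JUNB -0.16, -0.061 and -0.020 with the array median, quantile and normexp, and JUNB was -0.019 without clone 3 (-0.019 to 0.24). The JUND interaction was 0.099, 0.018 and 0.10 without control clone 3, knockdown clone 1 or knockdown clone 2 (-0.15 to 0.10). The cause was not tested.

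FOSB and FOSL1 could not be tested under the filter on every array in the fits where they were dim. Other probes per gene were not run because each member has 1. Signals near background limit FOSB and FOSL1, and 3 clones per group on 2 slides limit every comparison.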
